A study of Mus musculus with 6 samples.

Results

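The vascular endothelial growth factor (VEGF) family was followed through tetraploid and diploid stromal cells as 10 genes, each chosen by its symbol in the authors' deposited table. There were 5 ligand genes (Vegfa, Vegfb, Vegfc, Vegfd and Pgf), 3 receptor tyrosine kinase genes (Flt1, Kdr and Flt4) and 2 neuropilin co-receptor genes (Nrp1 and Nrp2), out of 22343 measured genes. Vegfd stands in that table under its older symbol, Figf. Each of the 10 symbols had 1 probe set. A further probe set stands under Npn2, which RefSeq lists as a synonym of Nrp2. It was kept apart by the symbol rule, and its values are given beside those of Nrp2.

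The cells were mesenchymal stromal cells, adherent cells from mouse bone marrow with the capacity to become bone, cartilage or fat, grown in a stem cell medium. Per the labels, propidium iodide staining gave their ploidy and SKY (spectral karyotyping) was used to check it. The tetraploid group held a primary culture (I), an established line (II) and an artificial tetraploid clone (III). The diploid group held a clone (I) and the primary cultures II and III. Each of the 6 cultures had 1 array, and the labels name no strain, age, treatment or shared parent of the cultures, so a p-value here reflects only how these 6 cultures differ among themselves.

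VEGF ligands are secreted dimers that bind receptor tyrosine kinases, chiefly on endothelial cells. Vegfa, made by many cell types and raised by low oxygen, drives growth of blood vessels through Kdr, while Flt1 binds Vegfa, Vegfb and Pgf and can hold ligand away from Kdr. Vegfc and Vegfd act through Flt4 on lymphatic vessels after proteolytic processing, and the neuropilins bind both VEGF ligands and semaphorins. Marrow stroma is known mainly as a source of the ligands.

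Array values are log2 expression, so a difference of 1 is a 2-fold difference, and values of different genes are not compared with each other. The array medians lay between 4.60 and 4.69 in the tetraploid samples and between 4.54 and 4.78 in the diploid samples. The interquartile range was 3.16 to 3.24 on the tetraploid arrays, against 3.19, 3.24 and 2.75 on diploid I, II and III. The array weights of limma, which are low for arrays that deviate from their group, were 0.992 to 1.32 for the tetraploid samples, against 1.71, 1.89 and 0.194 for diploid I, II and III. Of 16 marrow stromal markers, 11 to 13 lay above the median of each tetraploid array and 11 to 14 above that of each diploid array. The leptin receptor gene Lepr and the proteoglycan gene Lum were below the median on every array. The surface marker gene Nt5e was below it on tetraploid I, tetraploid II and diploid III, and the proteoglycan gene Dcn on tetraploid I, tetraploid III and diploid I. Thy1 was below it on tetraploid II (3.96) and diploid III (4.35), Eng on tetraploid II (3.80) and the stem cell factor gene Kitl on diploid III (4.45). Tetraploid II also had Xist at 3.68 and the Y-linked gene Ddx3y at 9.80, where the other 5 arrays had 9.71 to 11.04 and 3.88 to 4.23. Of 25917 named probe sets, 0 passed an adjusted p under 0.05 between tetraploid and diploid samples (limma, Benjamini-Hochberg, smallest adjusted p = 0.876), or 0%, and 1332, or 5.14%, had an unadjusted p under 0.05. No VEGF family gene therefore passed the test, and the differences below are given as measured values.

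The 250 bases before the start of 4 members are shown, because these are the genes to which the values below return: the ligand gene whose groups did not overlap (Vegfd), its closest relative, which ran in the other direction (Vegfc), the oxygen-regulated ligand gene (Vegfa), and the receptor gene that was high on 1 array (Flt1). They are RefSeq sequences of build GRCm38.p6, 5′ to 3′ on the gene's strand. Capitals mark every match, on either strand, to 6 short motifs. TATAAA is the TATA box sequence, and GGGCGG is the GC box. ACGTG is one core of hypoxia response elements, bound by the oxygen-regulated factors. GCGTG is the other such core, and matches of different motifs may overlap. TGACGTCA is the full cAMP response element. TGACTCA is the AP-1 site. The windows lie at chrX:164373272-164373521 (plus strand) for Vegfd, chr8:54077282-54077531 (plus strand) for Vegfc, chr17:46032378-46032627 (minus strand) for Vegfa and chr5:147726012-147726261 (minus strand) for Flt1.
Vegfd: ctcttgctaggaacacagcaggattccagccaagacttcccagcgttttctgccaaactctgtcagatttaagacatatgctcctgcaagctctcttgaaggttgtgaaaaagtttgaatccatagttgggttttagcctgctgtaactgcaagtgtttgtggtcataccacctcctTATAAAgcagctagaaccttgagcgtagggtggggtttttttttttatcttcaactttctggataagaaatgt
Vegfc: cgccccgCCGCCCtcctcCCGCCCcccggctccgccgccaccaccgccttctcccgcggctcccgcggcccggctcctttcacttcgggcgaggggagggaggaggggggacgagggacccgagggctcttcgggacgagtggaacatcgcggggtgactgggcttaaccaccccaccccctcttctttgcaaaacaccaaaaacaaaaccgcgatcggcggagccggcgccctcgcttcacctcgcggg
Vegfa: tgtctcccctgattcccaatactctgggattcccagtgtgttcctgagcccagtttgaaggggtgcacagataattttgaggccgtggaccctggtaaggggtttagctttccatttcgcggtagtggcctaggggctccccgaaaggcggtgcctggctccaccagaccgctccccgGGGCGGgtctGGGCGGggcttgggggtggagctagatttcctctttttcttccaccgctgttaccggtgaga
Flt1: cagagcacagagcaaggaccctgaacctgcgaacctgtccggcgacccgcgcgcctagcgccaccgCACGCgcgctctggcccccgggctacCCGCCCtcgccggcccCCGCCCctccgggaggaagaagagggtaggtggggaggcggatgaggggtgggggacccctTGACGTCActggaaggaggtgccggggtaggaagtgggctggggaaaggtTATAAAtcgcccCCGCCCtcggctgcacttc
The Vegfd window held a TATA box sequence and no GC box, and 42.4% of its bases were G or C. The windows of Vegfc and Vegfa held 2 GC boxes each and no TATA box, with 71.6% and 59.2% G or C. The Flt1 window held a TATA box, 3 GC boxes, a full cAMP response element and 1 hypoxia core, with 70.4% G or C. Among 32841 windows of the same length, which include alternative starts of a gene, 12.4% held the TATA box sequence, 32.7% the GC box, 1.55% the cAMP response element, 16.6% ACGTG, 28.2% GCGTG and 4.46% the AP-1 site, and the median content of G and C was 52.4%. Both hypoxia cores were without a match in the windows of Vegfd, Vegfc and Vegfa, which says only that these letters are not in these 250 bases.

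Vegfd, a growth factor for lymphatic vessels, was the member with the largest difference between the ploidies. It stood at 9.89, 9.85 and 9.27 in tetraploid I, II and III, against 7.76, 7.03 and 4.85 in diploid I, II and III. Every tetraploid value lay above every diploid value, and the tetraploid samples were close together, with a range of 0.62, while the diploid samples ranged over 2.91. The means were 9.67 ± 0.35 in tetraploid and 6.55 ± 1.52 in diploid samples (SD, n = 3 each), a log2 difference of 3.12 (SE 0.76, 95% confidence interval 1.21 to 5.03), or 8.7-fold. It did not pass over all probe sets (limma, unadjusted p = 0.00762, adjusted p = 0.876), and the two-sided p of an exact permutation test was 0.1, the smallest that 3 samples against 3 can give. Among all measured genes, 0.0895% had a larger absolute difference. The authors' deposited table gives Vegfd a fold of -8.7, signed as diploid over tetraploid, with p = 0.0254.

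Vegfd was the 1 member of 10 without overlap between the groups, where 12.0% of all genes had none (4.83% higher and 7.19% lower in the tetraploid samples), and the 1 member with an unadjusted p under 0.05, where 5.10% of all genes had one. These shares are near the background, and the family as a whole does not stand out by its count. Diploid III, the array with the narrow value range, was the lowest of the 6 for Vegfd, close to its array median. Without diploid III the difference was smaller, at 2.27 (limma, unadjusted p = 0.0014, adjusted p = 0.719). Leaving out an array cannot create overlap, so the lack of it there was fixed in advance. Vegfd lies on the X chromosome, and tetraploid II, the sample with Y-linked expression, had a value of 9.85 beside 9.89 in tetraploid I.

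Vegfc, the closest relative of Vegfd and the main growth factor of lymphatic vessels, ran in the other direction. It had 5.76, 4.20 and 6.44 in tetraploid I, II and III, against 6.39, 7.11 and 7.24 in the diploid samples. Only tetraploid III (6.44) reached into the diploid range, just above diploid I (6.39), and tetraploid II lay below its array median. The means were 5.47 ± 1.15 in tetraploid and 6.91 ± 0.46 in diploid samples (SD, n = 3 each), with a log2 difference of -1.44 (SE 0.61, 95% confidence interval -2.97 to 0.08) that did not pass (limma, unadjusted p = 0.0596, adjusted p = 0.876). Without tetraploid II the difference was -0.81, and without tetraploid III it was -1.93. Over the 6 arrays the values of Vegfd and Vegfc had a Pearson r of -0.77, a description of 6 points that share the ploidy groups and the array scale. An r this low was not particular to the pair. Vegfd had r of -0.82 with Flt1 and -0.79 with Flt4, and Vegfc had -0.77 with Kdr.

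Vegfa, the main growth factor of blood vessels, separated the cultures in a way that cut across ploidy. Its values were 8.49, 9.02 and 10.31 in tetraploid I, II and III, against 10.49, 10.28 and 8.92 in diploid I, II and III. Tetraploid III, diploid I and diploid II were close together at the top, and tetraploid I, tetraploid II and diploid III lay lower. The log2 difference was -0.62 (SE 0.62, 95% confidence interval -2.18 to 0.93; limma, adjusted p = 0.876). It was -0.23 without tetraploid I, -0.33 without diploid I, -0.43 without diploid II, -1.14 without tetraploid III and -1.11 without diploid III, so its size depended on which array was left out.

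Vegfb and Pgf, the ligands of Flt1, varied little. Vegfb lay between 7.50 and 8.34 in the tetraploid samples and between 7.51 and 8.02 in the diploid samples, above the array median on all 6 arrays. Its log2 difference was 0.12 (SE 0.26, 95% confidence interval -0.53 to 0.77). Pgf, placental growth factor, lay between 4.09 and 4.67 in the tetraploid samples and between 4.37 and 4.91 in the diploid samples, at or near the array medians, with a log2 difference of -0.27 (SE 0.22, 95% confidence interval -0.81 to 0.26). Neither passed (limma, adjusted p = 0.92 for Vegfb and 0.876 for Pgf).

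**Figure D1:**
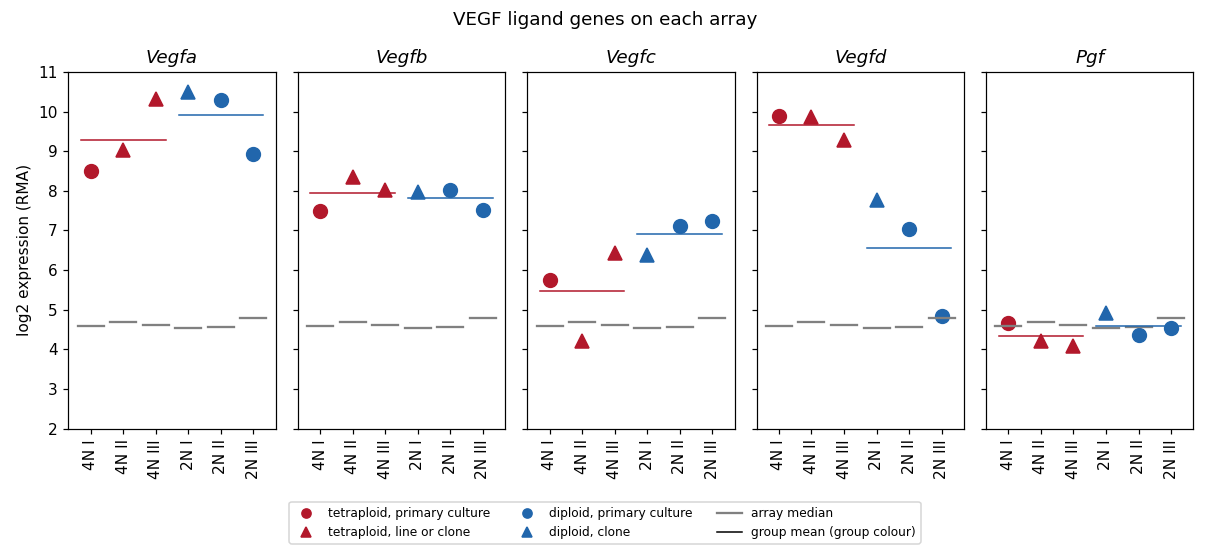
Log2 expression of the 5 VEGF ligand genes on each of the 6 arrays, with tetraploid samples (4N, red) left of diploid samples (2N, blue), circles for primary cultures, triangles for lines and clones, grey bars at each array's median and coloured lines at the group means. All 3 tetraploid values of Vegfd lie above all 3 diploid values, while Vegfa is high in tetraploid III, diploid I and diploid II.

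Of the receptor kinases, Flt1 was high on a single array. Flt1 had 3.89, 4.01 and 4.44 in tetraploid I, II and III, against 4.45, 4.00 and 7.32 in diploid I, II and III. Diploid III was the only array on which Flt1 exceeded the array median, and the remaining 5 values were close together. Over all genes, 56.7% exceeded the median on at least 1 array. The log2 difference was -1.14 (SE 0.90; limma, adjusted p = 0.876), and without diploid III it was -0.11.

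Kdr, the receptor kinase that carries most VEGF signalling in blood vessel endothelium, was not above the median of any array. It had 3.51, 4.06 and 3.37 in the tetraploid samples, against 3.57, 3.45 and 3.63 in the diploid samples, and 5 of the 6 values were at or below the lower quartile of their array. The same held for Flt4, the receptor of Vegfc and Vegfd, with 3.57, 3.51 and 3.67 in the tetraploid samples, against 3.47, 3.65 and 4.19 in the diploid samples. On diploid III, where Flt1 was high, Kdr at 3.63 was still below the lower quartile of the array. Flt4 had its highest value there, 4.19, which was below the array median. The log2 differences were 0.10 (SE 0.20) for Kdr and -0.19 (SE 0.20) for Flt4 (limma, adjusted p = 0.916 and 0.876), both for genes below every array median.

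Diploid III also differed from the other arrays in endothelial markers, in part. Of 20 vascular endothelial markers, diploid III had the highest value for 15, beside 38.5% of all genes with their highest value on that array. That share is over genes of every level, whereas 12 of the 20 markers lay at or below the lower quartile on 5 or more arrays. The lower quartile itself was highest on diploid III, at 4.02 against 3.82 to 3.84 on the other arrays. Cdh5, the endothelial cadherin gene, had 3.76 to 3.79 on the tetraploid arrays, against 3.70, 3.74 and 11.03 on diploid I, II and III. Ecscr, an endothelial membrane protein gene, had 4.72 to 5.47 on the tetraploid arrays, against 5.50, 5.70 and 7.36 on diploid I, II and III. The receptor partner gene Ramp2 had 3.89 to 4.80 on the tetraploid arrays, against 3.85, 3.79 and 5.41 on diploid I, II and III. Diploid III was thus the highest array for all 3 genes, by far the most for Cdh5. The mean of the 20 markers was 3.84 to 3.88 in the tetraploid samples, against 3.91, 3.90 and 4.70 in diploid I, II and III. The diploid III mean includes the Cdh5 value of 11.03.

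Most of the 20 markers were below the array median on diploid III too, several of them at higher values than on the other arrays. Above the array median were 2 of the 20 markers on each tetraploid array, against 2, 2 and 4 on diploid I, II and III, and 15 were not above the median of any array. The junction gene Esam had 3.56 to 3.62 on the tetraploid arrays, against 3.38, 3.50 and 4.81 on diploid I, II and III. Highest on diploid III but below its median were Mmrn2 (4.65), Sox7 (4.54), Emcn (4.48), Plvap (4.44) and the adhesion gene Pecam1 (4.18), which had 3.51 to 3.58 on the tetraploid arrays. Esam, Mmrn2, Sox7, Emcn and Plvap were picked with their values in view. Egfl7, picked in the same way, ran in the other direction, with 4.36 on diploid III against 4.63 to 4.98 on the other arrays. The angiopoietin receptor gene Tek had 3.63 on diploid III, Tie1 had 3.82, Vwf, which encodes von Willebrand factor, had 4.00 and the endothelial transcription factor gene Erg had 3.94. All 6 lymphatic markers had their highest value on diploid III, beside 38.5% of all genes. The lower quartile of that array was also the highest, at 4.02 against 3.82 to 3.84 on the other arrays. Of the 6 markers, 3 lay at or below the lower quartile on 5 or more arrays. The mean of the 6 was 4.91, 4.68 and 4.79 on the tetraploid arrays, against 4.80, 4.83 and 5.15 on diploid I, II and III. On diploid III the lymphatic genes Prox1 (3.75) and Lyve1 (4.20) were below the array median, and of the 6 only Pdpn, shared by stromal cells, was above it, as on every array. In cultures measured as bulk RNA, a few cells with much of an RNA and many cells with little cannot be told apart. The part of endothelial RNA in the Flt1 value was not tested.

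**Figure D2:**
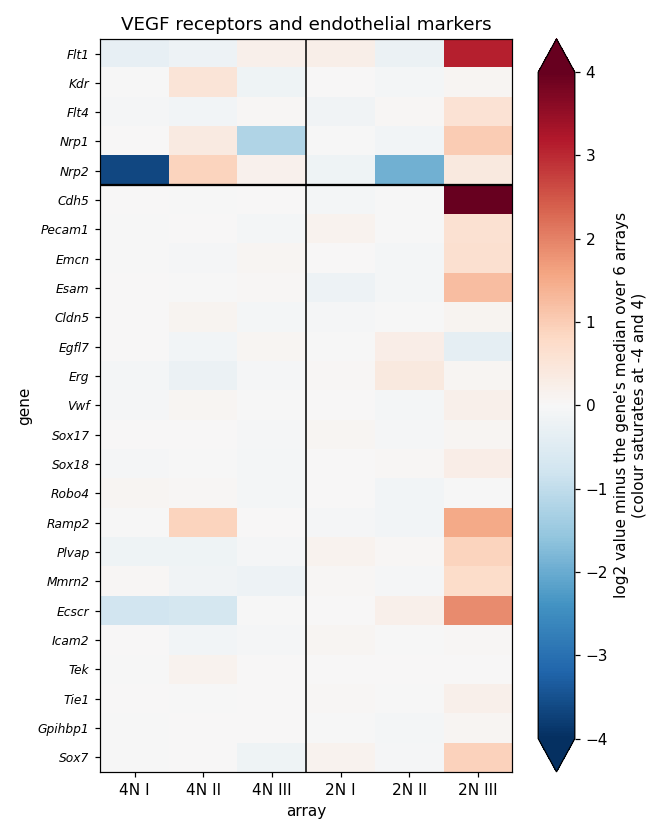
Log2 expression of the 5 VEGF receptor and neuropilin genes (top) and of 20 vascular endothelial markers (below the line) on each array, as the difference from the gene's own median over the 6 arrays, with tetraploid samples (4N) left of diploid samples (2N). Diploid III stands out for Flt1 (7.32) and Cdh5 (11.03), while Kdr, Tek and Erg are near their medians there.

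The neuropilins were above the array median on all 6 arrays. Nrp1 had 8.94, 9.28 and 7.71 in tetraploid I, II and III, against 8.90, 8.82 and 9.93 in diploid I, II and III. Tetraploid III was the lowest and diploid III the highest, and the other arrays lay between them. The log2 difference was -0.58 (SE 0.51, 95% confidence interval -1.85 to 0.70; limma, adjusted p = 0.876), and -0.11 without tetraploid III or -0.22 without diploid III.

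Nrp2 spanned 4.55 log2 units, more than any other member apart from Vegfd. It had 5.32, 9.87 and 9.14 in tetraploid I, II and III, against 8.80, 7.05 and 9.36 in diploid I, II and III. Tetraploid I and diploid II, both primary cultures, were low, and the other primary culture, diploid III, was not. The groups overlapped fully, with a log2 difference of -0.29 (SE 1.34, 95% confidence interval -3.63 to 3.04; limma, adjusted p = 0.964), which turned to 1.10 without tetraploid I and to 0.18 without diploid III. The probe set under Npn2 had 4.80, 4.56 and 4.51 in tetraploid I, II and III, against 4.45, 4.53 and 4.62 in diploid I, II and III, and did not show the Nrp2 pattern of low values in tetraploid I and diploid II.

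**Figure D3:**
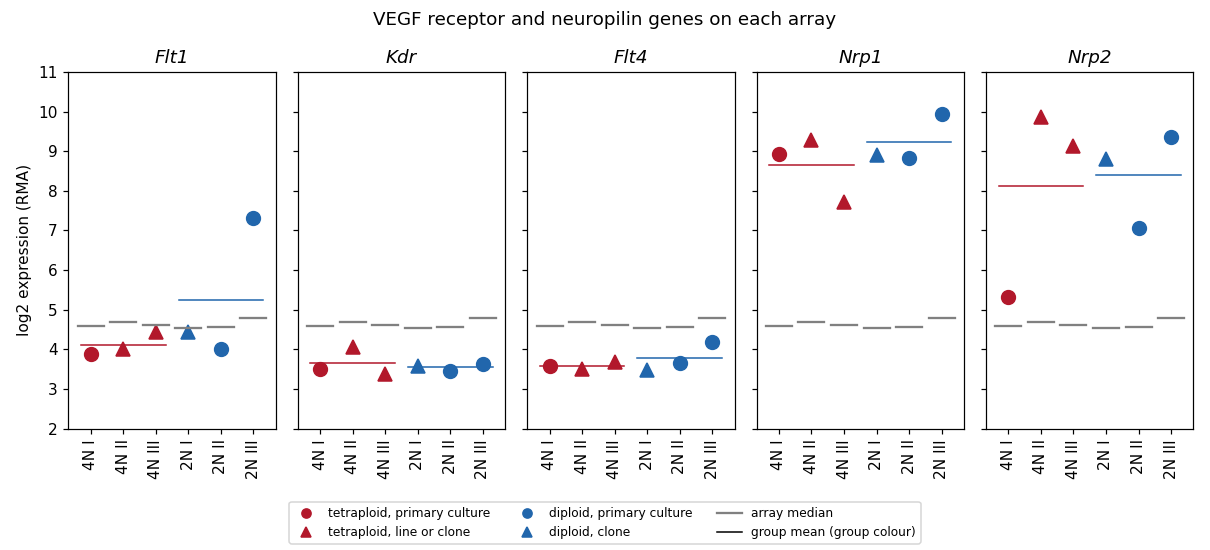
Log2 expression of the VEGF receptor and neuropilin genes on each array, with tetraploid samples (4N, red) left of diploid samples (2N, blue), circles for primary cultures, triangles for lines and clones, grey bars at each array's median and coloured lines at the group means. Kdr and Flt4 stay below every array median, Flt1 exceeds it on diploid III alone, and Nrp2 is low in tetraploid I (5.32) and diploid II (7.05).

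In all, 3 of the 10 members had a higher and 7 a lower mean in the tetraploid samples, with a median difference of -0.28, where 8747 of 22343 genes were higher and 13596 lower, with a median of -0.0477. No member changed direction after quantile normalisation or centring of the arrays. A span of at least 2 log2 units over the 6 arrays was reached by Vegfc, Vegfd, Flt1, Nrp1 and Nrp2, against 9.37% of all genes. Vegfa fell just short of it, at 2.00 after rounding.

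Ploidy was partly mixed with the origin of the cultures, so the difference was also computed within primary cultures (tetraploid I against both diploid primaries) and within lines and clones (both other tetraploids against diploid I). Vegfd was higher in both, by 3.95 (SE 1.03) and 1.80 (SE 1.03), a direction that the lack of overlap fixes in advance. Vegfc was lower in both, at -1.41 and -1.06 on the log2 scale (SE 1.02 each), and Vegfa at -1.11 and -0.82 (SE 0.86 each). Pgf differed by 0.22 among the primaries and -0.75 among lines and clones (SE 0.19 each), and Nrp2 by -2.88 and 0.70 (SE 1.10 each).

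The difference between the origins was 0.98 (SE 0.27) for Pgf and -3.59 (SE 1.56) for Nrp2 (limma, unadjusted p = 0.0266 and 0.0874, adjusted p = 1 for each). Pgf was the 1 member with an unadjusted p under 0.05 for that difference, where 2.68% of named probe sets had one. For the ploidy difference the 1 such member was Vegfd in primary cultures (4.33% of named probe sets) and Pgf in lines and clones (2.64%). No named probe set passed an adjusted p under 0.05 in any of the 3 tests (limma; an unadjusted p under 0.05 was found for 1122 among the primaries, 685 among lines and clones and 694 for the difference). Tetraploid I and diploid I each stood alone in their cell of this model, which takes their spread to equal that of the other samples.

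**Figure D4:**
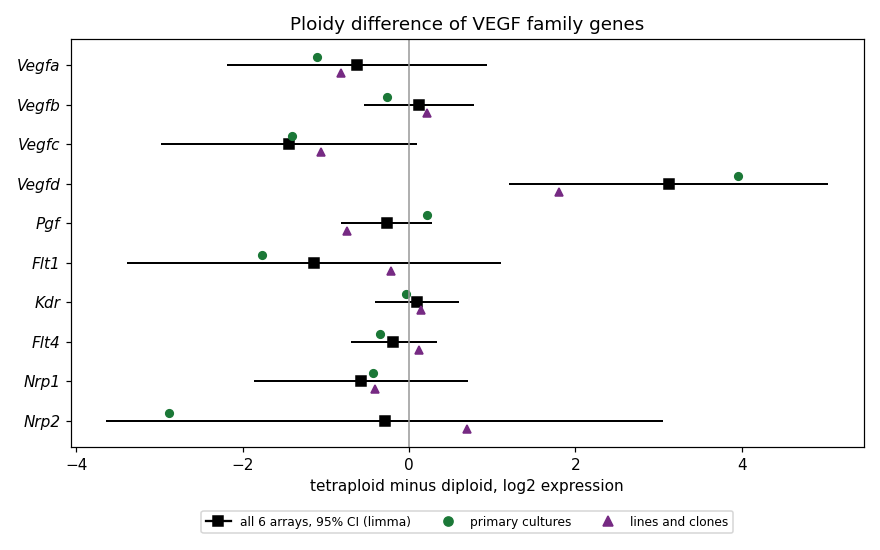
Tetraploid minus diploid log2 expression of the 10 VEGF family genes. Black squares with lines give the difference over all 6 arrays with its 95% confidence interval (limma), green circles the difference in primary cultures and purple triangles that in lines and clones. The interval of Vegfd (1.21 to 5.03) lies above 0, and those of the other 9 genes include 0.

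The genes whose values over the 6 arrays were most like those of a member were found by Pearson r among 7003 genes that spanned at least 1 log2 unit, as a description of 6 points that share array scale and ploidy groups. Closest to Vegfd were Epb41l3, which encodes a membrane skeleton protein (r = 0.993), Fam3a (0.981) and Col6a3, a collagen VI chain gene (0.978). Col6a3 had 10.45, 10.53 and 10.06 in the tetraploid samples, against 8.72, 8.18 and 7.46 in the diploid samples, and like Vegfd was lowest on diploid III. Closest to Vegfc were Marcksl1, which encodes an actin-binding protein (0.988), the gamma-tubulin gene Tubg1 (0.979) and the small nucleolar RNA gene Snord33 (0.977).

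Closest to Flt1 were Coro1c, a coronin gene (0.999), Mir335 (0.997) and Mir361 (0.995), and each of these had its highest value on diploid III. Without that array r was 0.98, 0.90 and 0.88. Closest to Nrp1 were Por, which encodes a cytochrome reductase (0.949), the matricellular protein gene Ccn1 (0.940) and the enolase gene Eno2 (0.933). Closest to Nrp2 were the Golgi membrane protein gene Golim4 (0.989), the apoptosis regulator Bok (0.979) and the pseudogene Gpr137b-ps (0.977), all 3 lowest in tetraploid I.

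Genes around the VEGF family were counted in lists. The share of all genes with an unadjusted p under 0.05 was 2.96% for higher and 2.14% for lower in the tetraploid samples. Of 38 genes that carry the receptor signal, 0 were higher and 4 lower at that p, with a median difference of -0.0264. These were Plcg1, the phospholipase that Kdr activates, at -0.90 (SE 0.29), the adaptor gene Shb at -1.43 (SE 0.47), the ERK kinase gene Mapk3 at -0.67 (SE 0.22) and the kinase gene Mapkapk2 at -0.51 (SE 0.20), the last chosen after its values were seen. Shb had 5.05, 5.16 and 6.72 in the tetraploid samples, against 7.22, 6.97 and 7.03 in the diploid samples. Plcg1 had 7.87, 8.38 and 8.27 in the tetraploid samples, against 8.55, 9.59 and 9.09 in the diploid samples. The groups did not overlap for either gene, and neither passed (limma, adjusted p = 0.876). Of the 38 genes, 5 were lower without overlap and 0 higher, where 7.19% and 4.83% of all genes were. The count of 4 lower genes was 0 with an ordinary linear model, with the p-values of the authors' deposited table and without diploid II, and it was 1 without tetraploid I, tetraploid II or diploid III.

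Vegfc and Vegfd are secreted as precursors that proteases trim. Of 14 genes for processing and matrix retention of the ligands, 1 was higher and 1 lower at that p, and the list median was -0.22. Both counts were 0 without tetraploid I, tetraploid II or diploid II. The proprotein convertase gene Pcsk7, whose product can cleave the Vegfc precursor, was at 0.56 (SE 0.17), and the lysosomal protease gene Ctsd at -0.51 (SE 0.19). The procollagen protease gene Adamts2 differed by 1.59 (SE 0.69), with values of 8.51 to 9.85 on tetraploid arrays and 6.57 to 8.90 on diploid arrays. Ccbe1, the cofactor of Vegfc processing, chosen after its values were seen, had 4.48 to 4.97 in the tetraploid samples and 4.61, 4.89 and 7.16 in diploid I, II and III.

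Of 13 partners of the neuropilins, 0 were higher and 2 lower at that p, the semaphorin gene Sema3d at -0.36 (SE 0.10), below the median of every array, and the adaptor gene Gipc1 at -0.46 (SE 0.16). After quantile normalisation neither was under that p, and the list median turned to -0.0855, against 0.0353. Without tetraploid II, tetraploid III or diploid I 1 gene was under that p, and without tetraploid I 3 were. The list median was also negative without tetraploid I (-0.0119), diploid I (-0.159) or diploid II (-0.054). Sema3b differed by 1.33 (SE 0.95), with 8.42 in tetraploid II, 4.91 and 5.33 in tetraploid I and III, and 4.62 to 5.07 in the diploid samples. Sema3a, which competes with VEGF for neuropilin and was chosen after its values were seen, had 8.62, 10.44 and 10.25 in the tetraploid samples, against 11.02, 11.50 and 4.17 in diploid I, II and III. It was high in every culture except diploid III, the array on which Nrp1 was highest.

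Of 10 genes of oxygen sensing, which acts upstream of Vegfa, 0 were higher and 1 lower at that p, and the list median was -0.12. The count of lower genes was 0 without tetraploid I, tetraploid II or diploid III and 2 without diploid I. The gene under that p over all 6 arrays, Egln3, encodes an oxygen-dependent hydroxylase that is itself raised by low oxygen. Egln3 had 4.90, 4.21 and 7.53 in tetraploid I, II and III, against 8.19, 8.21 and 9.65 in the diploid samples. It was the 1 gene of the 10 without overlap, where 7.19% of all genes were lower without overlap. Its log2 difference was -3.13 (SE 0.95; limma, adjusted p = 0.876). Tetraploid I and II were low for both Egln3 and Vegfa, and diploid III was low for Vegfa but the highest for Egln3. Hif1a, the oxygen-regulated transcription factor gene, lay between 11.20 and 11.67 in the tetraploid samples and between 11.53 and 11.77 in the diploid samples. Epas1, which encodes a related factor typical of endothelium, had 3.70 to 3.94 in the tetraploid samples and 3.70, 3.61 and 5.95 in diploid I, II and III.

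**Figure D5:**
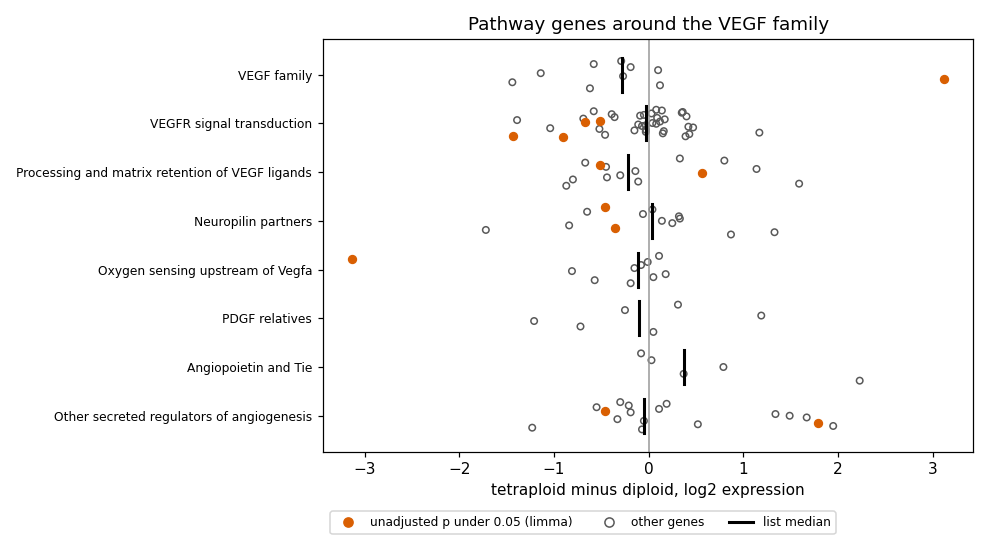
Tetraploid minus diploid log2 expression of the 10 VEGF family genes and of the genes of 7 lists around them, 1 point per gene, with filled orange points for an unadjusted p under 0.05 (limma) and a black bar at each list's median. Vegfd (3.12) lies far to the right and Egln3 (-3.13) far to the left, and the list medians lie between -0.28 and 0.37.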

How the data were processed

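Total RNA was hybridised to Affymetrix arrays, per the labels. The deposited table held log2 expression per probe set. RMA and Partek stand in the submitters' processing notes, with no version. The authors' deposited comparison table held gene symbols, a p-value per probe set and a fold score of diploid over tetraploid, with a sign. On the log2 scale these folds matched group differences computed from the arrays with a tolerance of 7.9e-05. Its 6 per-sample columns matched no label and were not used. The authors' genome build is not given in the sources used here.

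Old symbols were updated through RefSeq (GRCm38.p6) where the current symbol was not itself in the file (2351 symbols, with 19017 current and 981 kept). Where a gene had several probe sets, the one with the highest mean stood for it. limma 3.58.1 (R 4.3.3; lmFit, eBayes) compared 3 tetraploid with 3 diploid arrays over 25917 named probe sets, two-sided, with Benjamini-Hochberg adjustment, no covariate and no filter, and was tested on simulated data. A 4-mean limma model gave differences by origin. The number of arrays limits the precision.

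The members, the gene lists and the tests were chosen with earlier results of these data known. Named were the 10 members, the 3 genes of each pathway list with the smallest p (any gene in lists of 10 or fewer) and the 3 genes most like each member that spanned 2 log2 units. In marker lists other than marrow stroma, the 3 with the highest values and low defining genes were named. The marrow stromal markers named were those below the array median on at least 1 array, a choice made with their values in view. Figures were drawn with matplotlib 3.10.9. All 10 members had an upstream sequence in the RefSeq table.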

Additional observations from a re-analysis of the deposited data

How the results depend on the processing

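Of 18 alternatives, 0 brought a VEGF family gene past an adjusted p under 0.05, and 6 of the 10 members kept their direction in each alternative that could be run (Vegfa, Vegfc, Vegfd, Pgf, Flt1 and Nrp1). Vegfd ranged from 2.18 to 3.73. Pgf, Flt1, Kdr and Flt4 gave no value with the filter on dim probe sets, which removed them. Of 176 values, 11 changed sign, each for a member with a difference near 0 or, for Nrp2, with a wide spread, and the cause was not tested. Vegfb turned to -0.06 when arrays were weighted and to -0.03 when culture origin was a covariate, and ranged from -0.08 to 0.34 when 1 replicate was left out. Without both tetraploid II and diploid III, Vegfb was -0.24, Kdr -0.07 and Flt4 0.06. When 1 replicate was left out, Kdr ranged from -0.11 to 0.24, Flt4 from -0.34 to 0.03 and Nrp2 from -1.17 to 1.10. The number of members with an unadjusted p under 0.05 was 2, with Vegfc added, under the filter on dim probe sets and with an intensity trend in the variance, and 1 to 2 with 1 replicate left out (2 without tetraploid III). The number without overlap was 1 to 2 with 1 replicate left out (2 without tetraploid I, tetraploid III, diploid I or diploid II), where fewer arrays make overlap rarer. The number of named probe sets with an adjusted p under 0.05 was 0 in the alternatives with all replicates and 0 to 1 with 1 left out (1 without tetraploid III or without diploid II, in neither case a VEGF family gene). The repeat numbers did not pair the samples: the deviations of same-numbered samples had r of -0.12, -0.15 and -0.34, and with the replicate block Vegfd was 3.12 (limma, unadjusted p = 0.00607), 1 member was under p 0.05 and 0 named probe sets passed. Of 126 list medians, 122 moved by less than the spread between replicates. The other 4 were the angiopoietin and Tie list at 1.51 after dim probe sets were filtered and -0.0411 without tetraploid II, against 0.371, and the PDGF list at -0.48 without diploid I and 0.288 without diploid II, against -0.101. The counts of list genes under p 0.05 also changed with 1 replicate left out, as given beside each list; for the PDGF list 1 gene was under it without diploid I, and for the angiopoietin list 1 without diploid II.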

Other observations

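Growth factors related to VEGF or acting beside it on vessels varied between the cultures. Of 6 PDGF family genes, 0 had an unadjusted p under 0.05, where 5.10% of all genes had one. Pdgfc, a ligand gene, had 6.62, 8.05 and 9.21 in tetraploid I, II and III, against 10.14, 9.60 and 7.76 in diploid I, II and III. Pdgfd, another ligand gene, had 8.09, 6.87 and 6.30 in the tetraploid samples, against 7.00, 5.85 and 4.82 in the diploid samples. Pdgfb, a ligand gene typical of endothelium, had 3.90 to 4.00 in the tetraploid samples, against 3.96, 4.09 and 5.96 in diploid I, II and III. The receptor gene Pdgfrb lay between 10.40 and 11.10 in the tetraploid samples and between 9.07 and 11.38 in the diploid samples.

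Of 5 angiopoietin and Tie genes, 0 had an unadjusted p under 0.05, where 5.10% of all genes had one. Angpt1, which encodes the stabilising ligand of Tek, had 8.60, 7.73 and 7.14 in the tetraploid samples, against 5.88, 7.26 and 3.65 in the diploid samples, a log2 difference of 2.23 (SE 0.97; limma, unadjusted p = 0.0641). As for Vegfd, diploid III was the lowest array. Of 17 other secreted regulators of angiogenesis, 1 was higher and 1 lower at an unadjusted p under 0.05, beside 2.96% and 2.14% of all genes. The higher count was 0 without tetraploid II, diploid I or diploid II, and the lower count was 2 without diploid III. Over the other alternatives each count ranged from 0 to 2. With an ordinary linear model and with the p-values of the authors' deposited table, 0 were higher and 2 lower. The niche chemokine gene Cxcl12 was at 1.79 (SE 0.64) and Vash2, which encodes a relative of vasohibin, at -0.46 (SE 0.12), and its relative Vash1 was at -0.19 (SE 0.09). Hgf, the hepatocyte growth factor gene, chosen after its values were seen, had 8.67, 9.16 and 8.46 in the tetraploid samples, against 7.83, 8.27 and 4.33 in the diploid samples, without overlap. Its log2 difference was 1.95 (SE 1.07; limma, unadjusted p = 0.123), and diploid III was the lowest array. Of the 17 genes, 2 were higher and 2 lower without overlap, beside 4.83% and 7.19% of all genes.

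Markers of other cells differed between lists and arrays. Of 12 macrophage and monocyte markers, 9 were not above the median of any array, and the list mean was 3.94 to 4.43 on tetraploid arrays and 3.88 to 4.32 on diploid arrays. Tetraploid II had Cd68 at 7.97 and Lyz2 at 7.00, against 3.97 to 4.21 and 3.78 to 4.48 on the other tetraploid arrays, and Cd14 was highest on diploid III, at 7.46. Of 6 megakaryocyte markers, 4 were not above the median of any array, and the platelet chemokine gene Pf4 had 3.83 to 4.19 in the tetraploid samples, against 3.92, 3.76 and 6.25 in diploid I, II and III. Of 9 mural cell markers, 4 were not above the median of any array, and 5 exceeded it on at least 1 array. In this list Mcam was the 1 gene with an unadjusted p under 0.05, at -1.91 (SE 0.71; limma, adjusted p = 0.876). Over all genes, 2.14% were lower at that p. The groups overlapped for Mcam, with 7.14 in tetraploid III and 6.86 in diploid II. The actin gene Acta2 had 12.42 to 13.14 in the tetraploid samples, against 12.74, 12.40 and 9.34 in diploid I, II and III.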
